A study of Homo sapiens with 2 samples.

Results

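The transcripts of 8 neuroendocrine markers (SYP, CHGA, CHGB, SCG5, INSM1, DLL3, NCAM1 and ENO2) and of REST, the repressor of many neuronal genes, were taken by symbol from a table of gene expression. All 9 were among the 57351 symbols listed. The cells were 22Rv1, an established human prostate cancer line that grows without androgen. The knockdown cells (shEIF3F) expressed a hairpin RNA directed at EIF3F, the gene of an eIF3 subunit that takes part in the initiation of translation. The control cells (shCON) expressed a control vector. Total RNA was sequenced from 1 library of each, with no other treatment named in the labels, so no difference below has a replicate check, an error or a p-value. Only 1 hairpin was used, so loss of EIF3F and any off-target action cannot be told apart. In bulk RNA, fewer cells that express a gene and less of its RNA per cell cannot be told apart either.

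Neuroendocrine cells store peptides in dense-core granules and share much of their secretory machinery with neurons. In prostate cancer, tumours that turn from a luminal, androgen-driven state to a neuroendocrine state are recognised by granule and vesicle proteins such as chromogranin A and synaptophysin. REST is a zinc finger protein that binds a DNA element called RE1 near neuronal genes and brings in histone-modifying corepressors. In neurons and in neuroendocrine tumours its action is limited by low expression, by protein turnover, and by the splicing factor SRRM4, which yields a truncated form of REST.

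Values are TPM, which corrects for transcript length, so levels of different genes can be compared. Read numbers cannot be had from TPM, so sequencing depth is unknown. EIF3F itself was at 17.0 TPM in shEIF3F cells and 990.9 TPM in shCON cells, in the direction of the labels. All 11 prostate luminal markers were above 1 TPM in each library, which bears on the tissue of origin and not on which line was used. Levels differed widely, with the keratin KRT8 at 347 TPM in shEIF3F and 301 TPM in shCON. KLK3 was at 1.94 TPM in shEIF3F and 9.71 TPM in shCON. Differences of these genes went in both directions and are given at the end. Markers of other cells ranged from 0 to levels like those of the neuroendocrine markers. The 5 endothelial genes summed to 0.05 TPM in shEIF3F and 0.02 TPM in shCON, with VWF, CDH5 and KDR at 0 in both. The 5 glial genes summed to 0.75 TPM in shEIF3F and 1.25 TPM in shCON, with SOX10 at 0 in both. The 6 immune genes summed to 5.91 TPM in shEIF3F and 1.58 TPM in shCON, mostly CD68, at 5.34 TPM in shEIF3F and 1.2 TPM in shCON, with MS4A1 at 0 in both. The 7 fibroblast genes summed to 27.2 TPM in shEIF3F and 40.9 TPM in shCON, with PDGFRA at 0 in both. Most of that came from LUM, at 20.9 TPM in shEIF3F and 24.3 TPM in shCON, and DCN, at 4.86 TPM in shEIF3F and 12.9 TPM in shCON. The part of these genes in the results was not tested.

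Promoter windows from 250 bases before to 50 bases after the annotated start were used for 4 of the 9 genes (RefSeq, GRCh38.p14). They are shown because SYP and ENO2 were lower in shEIF3F, SCG5 was listed above 0 in shEIF3F alone, and REST is the repressor of this group. The promoter set used held no window for DLL3, CHGB, INSM1 or NCAM1, so the choice was also limited by what was available. Each is written 5′ to 3′ on the gene's strand, and for REST the window of its downstream annotated start is given. Capitals mark exact matches, on either strand, to the RE1 arms CAGCACC and GGACAGC, the E-box CAGCTG or the GC box GGGCGG.
SYP, chrX:49200144-49200443, - strand: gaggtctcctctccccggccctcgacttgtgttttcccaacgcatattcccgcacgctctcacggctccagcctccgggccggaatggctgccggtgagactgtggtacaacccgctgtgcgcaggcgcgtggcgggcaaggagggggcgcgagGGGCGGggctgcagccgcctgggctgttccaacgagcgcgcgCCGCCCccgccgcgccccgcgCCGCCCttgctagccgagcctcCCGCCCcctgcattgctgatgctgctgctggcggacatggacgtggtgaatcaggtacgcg
ENO2, chr12:6914330-6914629, + strand: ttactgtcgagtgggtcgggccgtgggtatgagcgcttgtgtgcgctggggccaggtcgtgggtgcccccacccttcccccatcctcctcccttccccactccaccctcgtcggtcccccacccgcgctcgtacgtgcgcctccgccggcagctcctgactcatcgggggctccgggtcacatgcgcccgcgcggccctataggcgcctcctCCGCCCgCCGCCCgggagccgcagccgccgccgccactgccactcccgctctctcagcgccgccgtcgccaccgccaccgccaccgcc
SCG5, chr15:32641460-32641759, + strand: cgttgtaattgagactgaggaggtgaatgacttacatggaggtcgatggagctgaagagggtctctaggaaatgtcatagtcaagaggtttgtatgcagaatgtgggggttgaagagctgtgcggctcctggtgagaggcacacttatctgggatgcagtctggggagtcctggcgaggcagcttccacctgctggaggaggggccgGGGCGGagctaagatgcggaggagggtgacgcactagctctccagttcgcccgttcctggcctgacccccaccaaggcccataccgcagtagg
REST, chr4:56908660-56908959, + strand: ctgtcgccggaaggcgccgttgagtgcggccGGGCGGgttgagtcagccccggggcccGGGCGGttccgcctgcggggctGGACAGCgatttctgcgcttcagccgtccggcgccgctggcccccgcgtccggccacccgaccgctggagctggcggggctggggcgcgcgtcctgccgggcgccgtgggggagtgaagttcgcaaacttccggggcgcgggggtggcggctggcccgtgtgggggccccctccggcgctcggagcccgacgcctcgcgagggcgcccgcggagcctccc

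SYP held 4 GC boxes, ENO2 held 2 and SCG5 held 1, a motif present in 45.0% of all 35116 promoter windows. The right RE1 arm GGACAGC was found in REST, starting 170 bases before that start site, and in 6.03% of all windows. The left arm CAGCACC, present in 7.75% of all windows, and the E-box CAGCTG, present in 17.9%, matched none of the 5 windows of these 4 genes. When the RE1 arms were placed 2 bases apart, the best stretch in SYP matched 10 of 14 letters, on the strand opposite to the gene, and the best in ENO2 matched 9. As many as 10 letters were matched in 37.5% of all windows and 9 in 85.2%, so matches of this size are common. In these stretches, shown next because SYP and ENO2 are the markers with the highest mean level, capitals mark the letters that matched.
SYP, best RE1 stretch: CAGCAgCagcatCAGC
ENO2, best RE1 stretch: CgcCtCCgccGgCAGC

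The markers differed in both directions. SYP, ENO2 and DLL3, the 3 with the highest levels in control cells, were lower in shEIF3F, while the granule protein CHGB was higher. The other 4 stayed under a mean of 1 TPM: CHGA, SCG5, NCAM1 and INSM1. REST was within 2-fold. Together the 8 markers summed to 15.3 TPM in shEIF3F and 44.9 TPM in shCON. SYP, ENO2 and DLL3 made up 74.3% of that sum in shEIF3F and 99.4% in shCON, whereas CHGB made up 18.9% in shEIF3F and 0.378% in shCON.

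**Figure D1:**
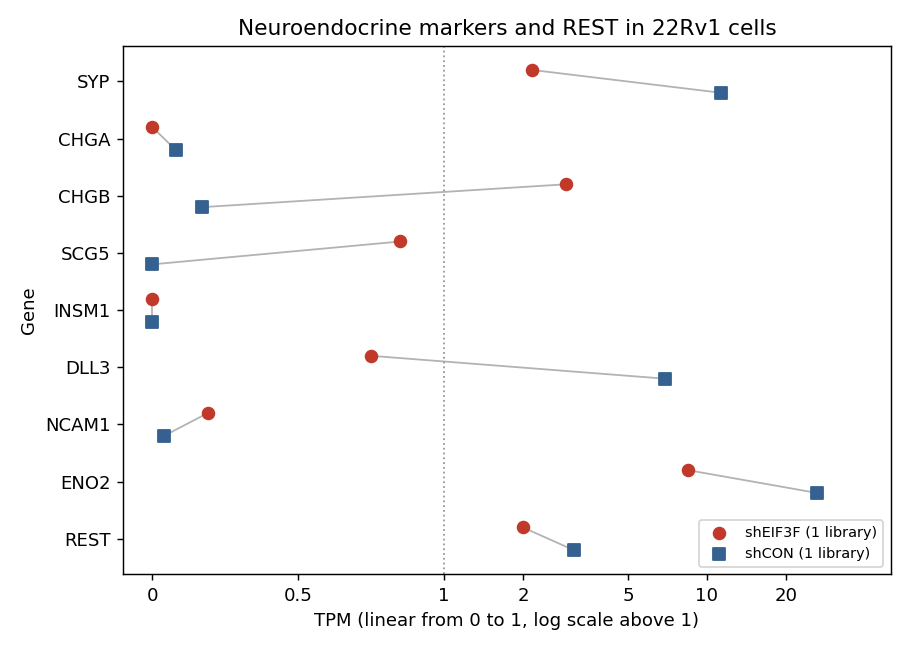
TPM of the 8 neuroendocrine markers and REST in the shEIF3F library (circles) and the shCON library (squares); the axis is linear from 0 to 1 TPM and logarithmic above, and the dotted line is 1 TPM. SYP, ENO2 and DLL3 lie to the left in shEIF3F (2.16, 8.48 and 0.75 TPM), CHGB lies to the right at 2.9 TPM, and REST moves least of the genes above 1 TPM in both libraries.

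Synaptophysin, the product of SYP, is a membrane protein of synaptic vesicles and of the small vesicles of endocrine cells. SYP was at 2.16 TPM in shEIF3F and 11.3 TPM in shCON, 19.0% of the control level. Its log2 ratio, log2((shEIF3F TPM + 1) / (shCON TPM + 1)), was -1.97, and 6.91% of genes tested had a lower one. By level, SYP stood above 23.4% of genes tested in shEIF3F and above 55.6% in shCON. Its close relative SYPL1, which is expressed in many non-neural tissues, was at 27.7 TPM in shEIF3F and 20.3 TPM in shCON. SYP therefore equalled 7.80% of the SYPL1 level in shEIF3F and 55.8% of it in shCON.

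ENO2, the gamma enolase of neurons and neuroendocrine cells, was the most abundant marker in both libraries. It was at 8.48 TPM in shEIF3F and 26.4 TPM in shCON, 32.2% of the control level, with a log2 ratio of -1.53. The other enolases differed in the same direction, although ENO1 has processed pseudogenes that can share its reads. ENO1, the form found in most tissues, was at 586 TPM in shEIF3F and 1397 TPM in shCON (log2 ratio -1.25). ENO3, the muscle form, was at 3.6 TPM in shEIF3F and 11.2 TPM in shCON (-1.41). Reads of ENO3 are uncertain, since 2.59% of its exon bases overlap PFN1 on the opposite strand and the use of strand is not given. PFN1 was at 963 TPM in shEIF3F and 1725 TPM in shCON. ENO2 made up 1.42% of the summed enolase TPM in shEIF3F and 1.84% in shCON.

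DLL3 encodes an atypical Notch ligand that sits mainly inside the cell and is found on the surface of neuroendocrine tumour cells. DLL3 was at 0.75 TPM in shEIF3F and 6.93 TPM in shCON, 10.8% of the control level, with a log2 ratio of -2.18. It stood above 44.2% of genes tested in shCON but above 5.86% of them in shEIF3F.

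Of the granule proteins, CHGB differed in the direction opposite to SYP, and SCG5 and CHGA were too low for a ratio. Chromogranin B, the product of CHGB, is an acidic protein that condenses with hormones in dense-core granules. CHGB was at 2.9 TPM in shEIF3F and 0.17 TPM in shCON, a 17.1-fold difference in TPM and a log2 ratio of 1.74 after the pseudocount. Of genes tested, 97.4% had a lower ratio. The control value is close to 0, so the size of the fold rests on a very low level. SCG5 encodes 7B2, a chaperone of the prohormone convertase PCSK2. SCG5 was at 0.85 TPM in shEIF3F and was listed at 0 in shCON, so no fold is given. Chromogranin A, the product of CHGA and the serum marker of neuroendocrine tumours, was listed at 0 in shEIF3F and was at 0.08 TPM in shCON. CHGA, CHGB and SCG5 summed to 3.75 TPM in shEIF3F and 0.25 TPM in shCON.

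The remaining markers were at the bottom of the range. INSM1, a zinc finger transcription factor of neuroendocrine differentiation, was listed at 0 in both libraries. NCAM1, the neural cell adhesion molecule also known as CD56, was at 0.19 TPM in shEIF3F and 0.04 TPM in shCON. At these levels no difference can be read. NCAM1 also shares 4.33% of its exon bases with the antisense gene NCAM1-AS1, which was listed at 0 in both libraries. In each library 3 of the 8 markers reached 1 TPM, but they were ENO2, CHGB and SYP in shEIF3F and ENO2, SYP and DLL3 in shCON.

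REST was at 1.99 TPM in shEIF3F and 3.12 TPM in shCON, 63.8% of the control level. Of its 7983 exon bases, 23 overlap NOA1 on the opposite strand. Its log2 ratio of -0.46 lay close to the median of all genes, -0.36, and 45.5% of genes tested had a lower ratio. By level, the order in shEIF3F was ENO2, CHGB, SYP, REST, SCG5, DLL3 and NCAM1, and in shCON it was ENO2, SYP, DLL3, REST, CHGB, CHGA and NCAM1. ENO2 led both orders, and REST ranked next after the third marker in each. That marker was SYP in shEIF3F, at 2.16 TPM, and DLL3 in shCON, at 6.93 TPM. Without replicates, it is not known which neighbours in these orders differ beyond their spread.

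Ratios were computed for the 13309 genes that averaged at least 1 TPM over the libraries. A gene was called 2-fold lower at a log2 ratio of -1 or below and 2-fold higher at 1 or above, which is a rule of size and no test. Of all these genes, 25.5% were at least 2-fold lower and 8.45% at least 2-fold higher in shEIF3F. The filter was passed by 4 of the 8 markers and by REST. Of those 4, 3 were at least 2-fold lower (SYP, ENO2 and DLL3) and 1 at least 2-fold higher (CHGB). CHGB passed the filter through its shEIF3F value alone, and DLL3 through its shCON value alone. The direction of the difference was therefore built into both, and the count is given as a description. Among genes with a mean from 1 to below 5 TPM, where CHGB, DLL3 and REST lie, 20.1% were at least 2-fold lower and 9.96% at least 2-fold higher. From 5 to below 20 TPM, where SYP and ENO2 lie, these shares were 27.0% and 7.31%.

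**Figure D2:**
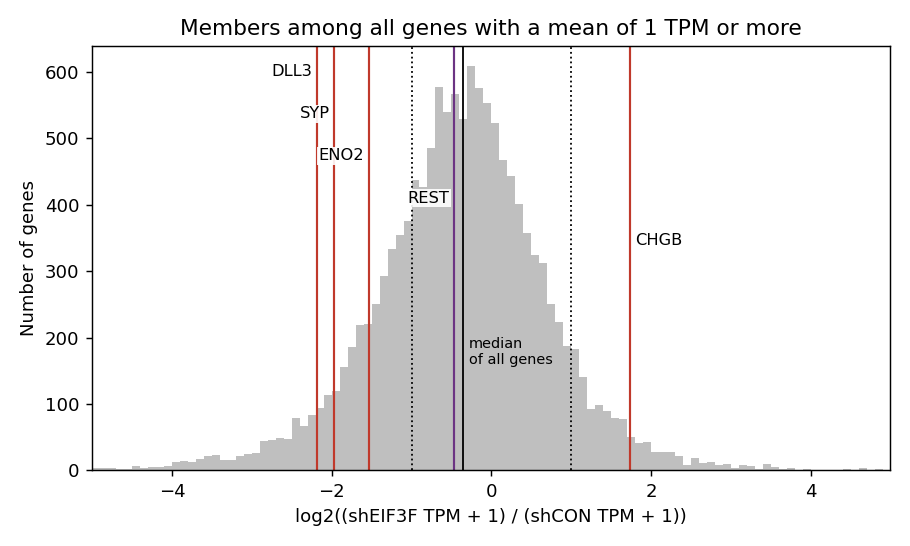
Distribution of log2((shEIF3F TPM + 1) / (shCON TPM + 1)) over the 13309 genes tested, as the number of genes per bin (grey), with the 5 members that passed the filter as coloured lines, the median of all genes as a black line and the 2-fold limits dotted; 26 genes beyond 5 in either direction are not drawn. DLL3, SYP and ENO2 lie in the lower tail, CHGB in the upper tail and REST beside the median.

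The scaling of the libraries bears on these ratios. Of all TPM, 59.7% in shEIF3F and 45.4% in shCON went to the same 100 top genes, so the remaining genes share a smaller part of the total in shEIF3F. Ratios also went with the GC content of the transcript (Spearman's rho -0.316 across genes, as a description, since genes are not replicates). The lower markers had GC-rich transcripts, at 64.9% GC for DLL3, 58.9% for SYP and 55.0% for ENO2, against a median of 50.5% over genes tested. CHGB was at 52.3% and REST at 40.0%. After subtraction of the median ratio of all genes (centring), SYP was at -1.61, DLL3 at -1.82, ENO2 at -1.17, CHGB at 2.09 and REST at -0.10. In that form 16.0% of all genes were at least 2-fold lower and 14.7% at least 2-fold higher. With the GC trend removed, SYP was at -1.22, DLL3 at -1.04, ENO2 at -1.05, CHGB at 2.13 and REST at -0.45, a value with 30.0% of genes below it, beside 13.9% of all genes at least 2-fold lower and 13.3% at least 2-fold higher. The 3 lower markers thus kept their side of the 2-fold limit in both forms, DLL3 and ENO2 by a narrow margin when the GC trend was removed. The other enolases lay within 2-fold with the GC trend removed, ENO1 at -0.50 and ENO3 at -0.96.

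**Figure D3:**
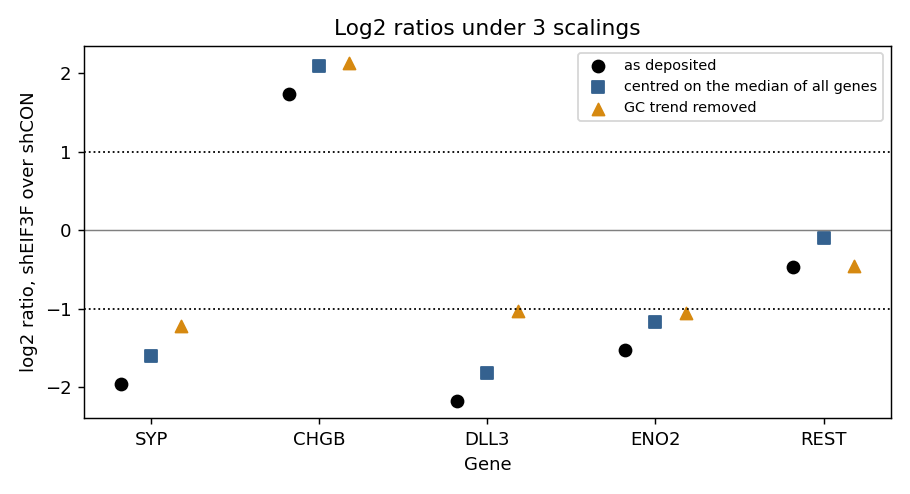
Log2 ratio of shEIF3F over shCON for the 5 members that passed the filter, as deposited (circles), after centring (squares) and with the GC trend removed (triangles); dotted lines mark 2-fold. SYP, DLL3 and ENO2 approach -1 with the GC trend removed (-1.22, -1.04 and -1.05), CHGB stays above 1 and REST stays between the limits.

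The genes around each marker were described from lists. For granule biogenesis and peptide processing, 8 of 17 listed genes passed the filter, CHGB among them. Of these, 2 were at least 2-fold higher (CHGB and CPE) and 1 was lower, beside 8.45% and 25.5% of all genes. CHGB passed the filter through its shEIF3F value alone. The median log2 ratio was 0.44, against -0.36 for all genes. CPE, the carboxypeptidase that trims prohormones, was at 49.8 TPM in shEIF3F and 23.8 TPM in shCON (log2 ratio 1.03). SCG3, a granin that tethers chromogranin A to the granule membrane, was at 3.57 TPM in shEIF3F and 1.32 TPM in shCON (0.98). PCSK1N, whose product proSAAS inhibits the convertase PCSK1, went the other way, at 12.3 TPM in shEIF3F and 88.8 TPM in shCON (-2.75). Both convertase genes were at or near 0: PCSK2 was listed at 0 in both libraries, and PCSK1 at 0 in shEIF3F and 0.01 TPM in shCON.

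For synaptic vesicles and exocytosis, 18 of 28 listed genes passed the filter, SYP among them. Of these, 8 were at least 2-fold lower, 1 was higher and 9 lay between, with a median of -0.75, beside 25.5% of all genes lower and 8.45% higher. The vesicle protein SV2A was at 4.8 TPM in shEIF3F and 38.3 TPM in shCON (log2 ratio -2.76). UNC13A, which primes vesicles for fusion, was at 0.91 TPM in shEIF3F and 12.1 TPM in shCON (-2.77). It is among the genes counted as lower and passed the filter through its shCON value alone. The syntaxin STX1A was at 3.37 TPM in shEIF3F and 14.8 TPM in shCON (-1.85). Reads of STX1A are uncertain, since 17.9% of its exon bases overlap BUD23 on the opposite strand and the use of strand is not given in the sources used here. SV2C, a relative of SV2A, was the listed gene at least 2-fold higher, at 58.3 TPM in shEIF3F and 17.6 TPM in shCON (1.68). With the GC trend removed, 5 of the 18 were lower and 2 higher, beside 13.9% and 13.3% of all genes, and the median was -0.07, close to the 0 of all genes.

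Of 21 listed transcription factors of neuroendocrine and neural lineages, 6 passed the filter, and INSM1 was not among them. Of the 6, 3 were at least 2-fold lower and 0 higher, beside 25.5% and 8.45% of all genes. MYT1 and PAX6, which are 2 of those 3, passed the filter through their shCON values alone, so a large ratio was built into both. HES6, a bHLH factor of neurogenesis, was at 1.55 TPM in shEIF3F and 16.9 TPM in shCON (log2 ratio -2.81). The zinc finger factor MYT1 was at 0.1 TPM in shEIF3F and 3.5 TPM in shCON (-2.03). PAX6 was at 0.2 TPM in shEIF3F and 2.35 TPM in shCON (-1.48), although 25.2% of its exon bases overlap ELP4 on the opposite strand. NEUROD1, a bHLH factor of neural and endocrine cells, was listed at 0 in both libraries.

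DLL3 was set beside the other genes of Notch signalling. Of 15 listed, 9 passed the filter, with 3 at least 2-fold lower (DLL3, JAG2 and LFNG), 0 higher and a median of -0.84, beside 25.5% of all genes lower and 8.45% higher. DLL3 and LFNG passed the filter through their shCON values alone. With the GC trend removed, 2 of the 9 were lower, beside 13.9% of all genes. LFNG was then at -0.82, and the median was -0.39. The ligand gene JAG2 was at 2.78 TPM in shEIF3F and 18.4 TPM in shCON (log2 ratio -2.36), and LFNG, a glycosyltransferase that modifies Notch receptors, at 0.14 TPM in shEIF3F and 2.79 TPM in shCON (-1.73). The Notch target HES1, a bHLH repressor, was at 15.2 TPM in shEIF3F and 27.4 TPM in shCON (-0.80). For NCAM1, its relative NCAM2 was at 0.93 TPM in shEIF3F and 1.78 TPM in shCON. The enzymes that add polysialic acid to NCAM1 were also low, ST8SIA2 at 0 in shEIF3F and 0.24 TPM in shCON, and ST8SIA4 at 0.16 TPM in shEIF3F and 0.24 TPM in shCON. NRCAM, a neural adhesion molecule of the L1 family, was at 5.93 TPM in shEIF3F and 2.17 TPM in shCON (1.13).

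The corepressors of REST all averaged at least 1 TPM over the libraries. All 20 listed passed the filter, with 5 (25%) at least 2-fold lower, 0 higher and a median of -0.70. The share lower is that of all genes, 25.5%, so the count says nothing particular to the corepressors. HMG20B, a subunit of the complex of REST with the demethylase KDM1A, was at 66.5 TPM in shEIF3F and 243.8 TPM in shCON (log2 ratio -1.86), where 9.57% of its exon bases overlap MFSD12 on the opposite strand. RCOR2, a scaffold of that complex, was at 0.79 TPM in shEIF3F and 3.29 TPM in shCON (-1.26). RCOR2 is among those counted as lower and passed the filter through its shCON value alone. EHMT1, a histone H3 lysine methyltransferase, was at 12.8 TPM in shEIF3F and 29.7 TPM in shCON (-1.15). The deacetylase gene HDAC1 was at 101 TPM in shEIF3F and 189 TPM in shCON (-0.90). The count of lower corepressors depended on scaling. It was 1 of 20 after centring, beside 16.0% of all genes. With the GC trend removed it was 0 of 20, beside 13.9% of all genes, and the median was -0.40 against 0 for all genes.

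Genes that act on REST itself differed in both directions. SRRM4, the splicing factor that switches REST to its truncated form, was at 4.57 TPM in shEIF3F and 15.0 TPM in shCON (log2 ratio -1.53), and -1.13 with the GC trend removed. SRRM3, a related splicing factor, was at 4.45 TPM in shEIF3F and 18.7 TPM in shCON (-1.85), but at -0.71 with the GC trend removed. USP7, a deubiquitinase that stabilises REST, was at 28.1 TPM in shEIF3F and 12.9 TPM in shCON (1.06). BTRC, the ubiquitin ligase subunit that marks REST for degradation, was nearly level at 2.26 TPM in shEIF3F and 2.17 TPM in shCON. Values per gene do not show which form of REST was made.

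Of 24 neuronal genes known as REST targets, 12 passed the filter, with 5 at least 2-fold lower, 0 higher and a median of -0.83. Over all genes, 25.5% were lower, 8.45% higher and the median was -0.36. CHRM4 and UNC13A passed the filter through their shCON values alone. UNC13A and SNAP25 were already counted among the vesicle genes, and VGF among the granule genes, so these lists are not separate. The muscarinic receptor gene CHRM4 was at 0.38 TPM in shEIF3F and 10.2 TPM in shCON (log2 ratio -3.02). TUBB3, the neuronal beta tubulin, was at 7.54 TPM in shEIF3F and 51.1 TPM in shCON (-2.61), and 35.8% of its exon bases are shared with AC092143.1 on the same strand. STMN3, a stathmin of neurons, was at 20.1 TPM in shEIF3F and 68.6 TPM in shCON (-1.73). STMN2, among the targets in which the RE1 element was first studied, was listed at 0 in both libraries. With the GC trend removed, 3 of the 12 were at least 2-fold lower (CHRM4, TUBB3 and UNC13A) and 1 was higher, beside 13.9% and 13.3% of all genes. The median was then -0.11, close to the 0 of all genes.

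**Figure D4:**
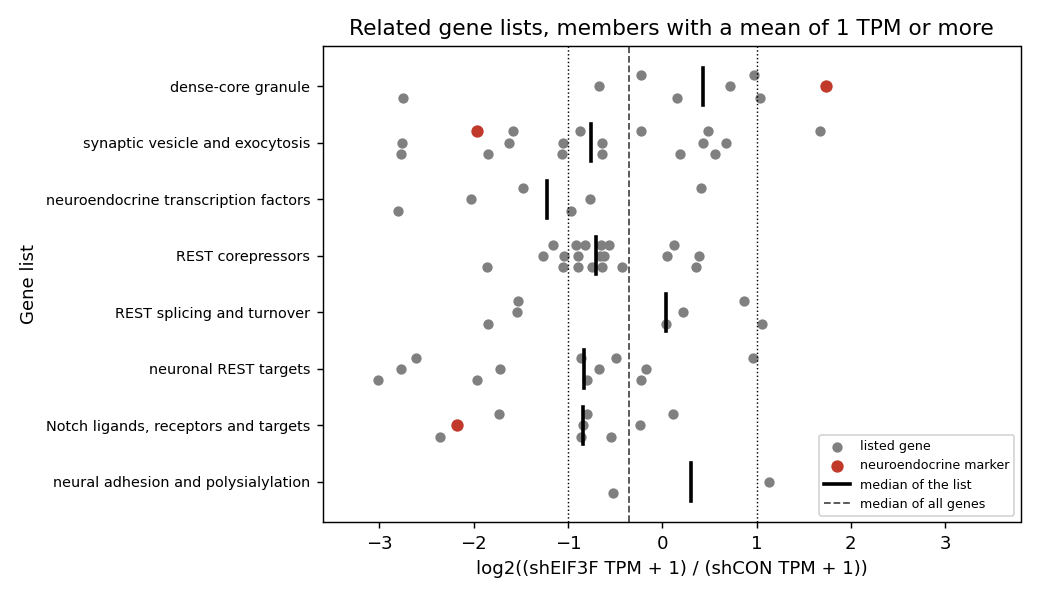
Log2((shEIF3F TPM + 1) / (shCON TPM + 1)) of listed genes that passed the filter, by list; red points are neuroendocrine markers, bars are list medians, the dashed line is the median of all genes and dotted lines mark 2-fold. As deposited, the granule list has a median of 0.44 and the lists of vesicle genes, transcription factors, REST corepressors, neuronal REST targets and Notch genes have medians below that of all genes, while single genes range from -3.02 to 1.74.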

How the data were processed

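Gene expression in 22Rv1 cells was measured by RNA-seq in 1 shEIF3F and 1 shCON library. Trizol and an Illumina TruSeq RNA kit were used for extraction and library preparation, per the labels' protocols. The authors deposited TPM, normalised within each library to gene length and total. Per the submitters' processing notes, the tools included HISAT2 and CASAVA and the build was hg19; which program counted genes, on which annotation, is not given in the sources used here. Entries that share a symbol were summed. The 27 symbols turned into dates and 5531 small RNA symbols (gene types of GENCODE release 29) were left out.

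Genes averaging at least 1 TPM were compared by log2 ratio with a pseudocount of 1, with no test. GC content is that of the longest GENCODE transcript, known for 99.1% of genes, and its trend was removed by centring within 20 bins. The markers, gene lists and rules were chosen with earlier results of these data known. All 9 members were named, with up to 4 other genes per list with the largest absolute ratio and 2 with the highest level; genes named at or near 0, with ratios within 2-fold, or as paralogs were added by role after their values were seen. Python 3.11.15, NumPy 2.4.6, pandas 2.3.3 and matplotlib 3.10.9 were used, and the calculations were tested on simulated data. Some genes of the lists are not reported here. Alternatives varied the pseudocount, the filter, the scaling and the handling of symbols.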

Additional observations from a re-analysis of the deposited data

How the results depend on the processing

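The ratios of SYP, DLL3 and ENO2 stayed at -1 or less under the alternatives that changed them. These were pseudocounts of 0.1 and 5, centring, rescaling without the 100 most abundant genes, and the GC trend removed. Their ratios were identical, where tested, under the settings that change which genes or entries are used. Those were no filter, a mean of 5 TPM or more, the most abundant entry per symbol, and small RNA genes kept. Such settings are therefore no check on the size of these ratios. SYP ranged from -2.34 to -1.19, DLL3 from -3.05 to -1.04 and ENO2 from -1.62 to -1.05. REST ranged from -0.62 to -0.10 and never reached 2-fold. CHGB ranged from 0.61 to 3.47: with a pseudocount of 5 it was at 0.61, which leaves 0 markers at least 2-fold higher. At a mean of 5 TPM or more, DLL3, CHGB and REST were not tested, which leaves 2 markers lower and 0 higher. Over all genes, the counts at least 2-fold lower and higher were 1897 and 475 with a pseudocount of 5, 2130 and 1958 after centring, 2150 and 1971 after rescaling, and 1836 and 1755 with the GC trend removed, against 3399 and 1124 as reported. The count higher was 616 at a mean of 5 TPM or more, where 8208 genes were tested. Centring adds 0.36 to each ratio, which by construction moves genes from the lower to the higher count. No paired analysis was possible because each group has 1 library. TPM keeps no read number, so depth limits the reading of every marker under 1 TPM by an unknown amount.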

Other observations

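Few other neuroendocrine markers were expressed. Of 12 listed, 3 passed the minimum of a mean of 1 TPM. PEG10, a retrotransposon-derived gene linked to neuroendocrine prostate cancer, was at 33.2 TPM in shEIF3F and 121 TPM in shCON (log2 ratio -1.84, and -1.67 with the GC trend removed). DDC, which encodes aromatic L-amino acid decarboxylase, was at 28.1 TPM in shEIF3F and 40.2 TPM in shCON (-0.50), and BSN, a scaffold of the presynaptic active zone, at 2.22 TPM in shEIF3F and 2.74 TPM in shCON (-0.22). The peptide genes GRP and SST were listed at 0 in both libraries.

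The prostate luminal genes differed in both directions. Of the 11 prostate luminal genes, 5 were at least 2-fold lower and 2 higher, beside 25.5% and 8.45% of all genes. Their median log2 ratio was -0.42. After centring, 2 were lower and 3 higher, beside 16.0% and 14.7% of all genes. FOLH1, which encodes prostate-specific membrane antigen, was at 482 TPM in shEIF3F and 145.6 TPM in shCON (1.72), whereas the androgen-induced kallikrein gene KLK2 was at 2.5 TPM in shEIF3F and 32.6 TPM in shCON (-3.26). Among 7 regulators of lineage plasticity, 5 passed the minimum, with 3 lower and 1 higher, beside 25.5% and 8.45% of all genes.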
